A study of Mus musculus with 12 samples.

Results

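The 40 genes described here encode the chaperones and folding enzymes of the endoplasmic reticulum (ER), measured by RNA-sequencing in the pancreatic islets of Wfs1-deficient mice and their controls. They were taken by name from a list of gene symbols, and the rule uses no measured value. All 40 were found among the 24078 entries of the deposited table, and all 40 passed the filter on low values (0.1 RPKM or more, averaged over the 12 animals), as did 21701 entries in all. RPKM correct read numbers for transcript length and library size, but not for the share of a library that a few very abundant transcripts take. Libraries also differed as a whole (median-of-ratios size factors 0.641 to 1.386), which limits comparisons of levels between animals. By role, 10 members were BiP (Hspa5) and its cofactors, 4 were GRP94 (Hsp90b1), Manf and the CRELD proteins, 5 belonged to the lectin cycle, 11 were protein disulfide isomerases and relatives, 3 were disulfide oxidases and 7 were prolyl isomerases.

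Proteins that enter the secretory pathway fold inside the ER. BiP, an Hsp70 chaperone, holds unfolded chains in cycles driven by ATP, with DnaJ proteins that deliver clients and exchange factors that release them. Calnexin and calreticulin hold glycoproteins through their sugars, disulfide isomerases form and reshuffle disulfide bonds, oxidases restore the isomerases, and prolyl isomerases turn peptide bonds before proline. When unfolded proteins pile up, the sensors ATF6, IRE1 and PERK start the unfolded protein response (UPR), which raises the transcription of many of these genes. Beta cells make proinsulin in large amounts, and WFS1, the ER membrane protein lost in Wolfram syndrome, is known as a regulator of ATF6.

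Islets came from 4 WT, 4 Wfs1HZ and 4 Wfs1KO animals, all of them male F2 hybrids aged 5 to 6 months and all labelled with the strain Wfs1tm1Koks, each animal giving 1 library. WT animals carried no mutant allele, Wfs1HZ animals carried 1 and Wfs1KO animals were homozygous. In the mutant allele most of exon 8 of Wfs1 is replaced by a LacZ cassette in every cell, and a fusion of the N-terminal part of the protein with LacZ is still made, so the model is a truncation and not a deletion of the whole gene. Handpicked islets of all groups were kept overnight in high glucose medium before RNA was extracted, and no other treatment is given in the labels for these samples. The values are from whole islets, in which fewer cells of a type and less RNA per cell cannot be told apart.

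Wfs1 itself was read at 33.9, 27.4, 24.9 and 28.4 RPKM in WT islets, 15.03, 4.69, 16.4 and 8.16 in Wfs1HZ islets, and 5.08, 6.61, 3.46 and 2.45 in Wfs1KO islets. Every Wfs1KO animal and every Wfs1HZ animal lay below all WT animals, with a log2 fold change of −2.76 ± 0.29 (SE) between Wfs1KO and WT (limma with Benjamini-Hochberg adjustment, adjusted p = 0.0400) and of -1.52 ± 0.37 (SE) between Wfs1HZ and WT, which did not pass (adjusted p = 1.00). The reads behind the RPKM, estimated from the steps in the values of short RNA genes and not the same quantity as the reads sequenced, numbered 2902000 to 8917000 in WT, 2189000 to 7297000 in Wfs1HZ and 3274000 to 9545000 in Wfs1KO, at which 3 reads on a transcript of 2000 bases were worth 0.157 to 0.685 RPKM. Marker genes of beta, alpha, delta and PP cells were present in all animals, apart from Mafa, a beta cell transcription factor, which was listed at 0 in 10 of the 12. Acinar markers of the exocrine pancreas were high and uneven: 14 of the 15 listed were found, and their summed level was 53815.8 to 121006.7 RPKM in WT, 9110.8 to 307256.1 in Wfs1HZ and 8540.4 to 278989.4 in Wfs1KO. The extremes were Wfs1HZ replicate 2 and Wfs1KO replicate 4 at the low end and Wfs1HZ replicate 4 and Wfs1KO replicate 3 at the high end. Wfs1HZ replicate 2 was also the shallowest library and had the lowest median Spearman correlation with the others (0.86, against 0.904 to 0.931 for the other 11). Over all entries tested, Wfs1HZ replicate 2 had a median 0.74 log2 units above the WT mean and replicate 4 one of −0.61, against −0.24 to 0.29 in the other 10 animals. Main counts and medians, and differences of the members described in full that move by over 1.5 times, are also given without these pairs of Wfs1HZ or Wfs1KO libraries.

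The ER stress response element (ERSE) is the classic promoter sequence through which ATF6 acts, with NF-Y at its CCAAT box and ATF6 at CCACG. Promoters of 34 of the 40 members were found in the RefSeq table (build GRCm38.p6, 250 bases before and 50 bases after each start), and the letters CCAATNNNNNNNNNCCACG were searched on both strands. They stood in the promoters of 8 members (23.5% of the 34): Hspa5, Dnajc3, Hsp90b1 (at 2 places), Creld2, Calr, Canx, Pdia6 and Ero1lb. Over all 32851 promoters of the table the share was 0.119%, and over the 27025 genes 0.137%. The 9 matches are shown because they mark which chaperone genes carry the element in these letters; each is written 5′ to 3′ in the direction of the motif, with CCAAT and CCACG in capitals.
Hspa5 (chr2:34772009-34772059, plus strand): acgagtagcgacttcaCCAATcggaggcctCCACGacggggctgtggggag
Dnajc3 (chr14:118937811-118937861, plus strand): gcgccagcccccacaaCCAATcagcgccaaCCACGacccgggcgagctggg
Hsp90b1, upper (chr10:86705622-86705672, minus strand): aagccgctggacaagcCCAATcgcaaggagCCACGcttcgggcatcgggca
Hsp90b1, lower (chr10:86705517-86705567, plus strand): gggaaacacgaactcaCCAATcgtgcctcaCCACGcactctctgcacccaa
Creld2 (chr15:88819504-88819554, minus strand): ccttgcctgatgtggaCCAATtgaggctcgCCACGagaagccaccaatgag
Calr (chr8:84847059-84847109, plus strand): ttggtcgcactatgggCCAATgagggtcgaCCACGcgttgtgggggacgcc
Canx (chr11:50325784-50325834, minus strand): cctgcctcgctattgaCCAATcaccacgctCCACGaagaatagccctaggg
Pdia6 (chr12:17266475-17266525, plus strand): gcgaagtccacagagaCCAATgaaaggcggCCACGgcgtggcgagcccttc
Ero1lb (chr13:12565666-12565716, minus strand): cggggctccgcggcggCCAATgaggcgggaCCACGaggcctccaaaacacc

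The related ERSE-II (ATTGGNCCACG, 0.0365% of all promoters) was found in Dnajb11 alone, 8 to 18 bases after the start, and the UPR element TGACGTGG (0.676% of all promoters), a sequence bound by XBP1 and ATF6, in Txndc5 and Txndc11. ERSE and ERSE-II both end in CCACG, so the searches overlap there, and CCACG on its own is common: it stood in 32.8% of all promoters and in those of 27 of the 34 members. The windows of these 3 genes follow, with the motif letters in capitals.
Dnajb11 (chr16:22857843-22857871, plus strand): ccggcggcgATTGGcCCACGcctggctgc
Txndc5 (chr13:38528029-38528068, minus strand): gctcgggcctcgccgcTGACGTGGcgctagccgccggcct
Txndc11 (chr16:11134611-11134650, minus strand): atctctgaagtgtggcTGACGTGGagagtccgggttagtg

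Of the 4 members whose Wfs1KO and WT animals did not overlap (described below), only Pdia6 had an ERSE in this window. The 250 bases before the start of the other 3 (for Fkbp11 the outermost of its 2 starts in the table) are shown for that reason, in the direction of the gene and with CCACG or its complement CGTGG in capitals. The 250 bases before the other start of Fkbp11, not shown, held 1 CGTGG. A match is a description of letters, not of binding, and no match says only that these letters are not in this window.
Fkbp11 (chr15:98728199-98728448, minus strand): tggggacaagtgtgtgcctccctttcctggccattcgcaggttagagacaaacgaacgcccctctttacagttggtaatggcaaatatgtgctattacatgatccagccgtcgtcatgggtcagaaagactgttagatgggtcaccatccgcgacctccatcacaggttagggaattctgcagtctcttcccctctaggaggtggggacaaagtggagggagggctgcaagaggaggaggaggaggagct
Sdf2l1 (chr16:17132384-17132633, minus strand): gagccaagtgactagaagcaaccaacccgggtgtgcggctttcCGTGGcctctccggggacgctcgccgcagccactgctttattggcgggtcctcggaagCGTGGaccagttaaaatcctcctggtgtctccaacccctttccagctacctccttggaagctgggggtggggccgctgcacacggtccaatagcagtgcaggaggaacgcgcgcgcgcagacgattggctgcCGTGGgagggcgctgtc
Uggt2 (chr14:119099435-119099684, minus strand): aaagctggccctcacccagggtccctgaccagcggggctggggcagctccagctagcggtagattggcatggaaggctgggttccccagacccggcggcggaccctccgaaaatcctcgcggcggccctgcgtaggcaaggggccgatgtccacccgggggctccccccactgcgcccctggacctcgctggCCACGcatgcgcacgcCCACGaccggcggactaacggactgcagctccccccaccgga

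**Figure D1:**
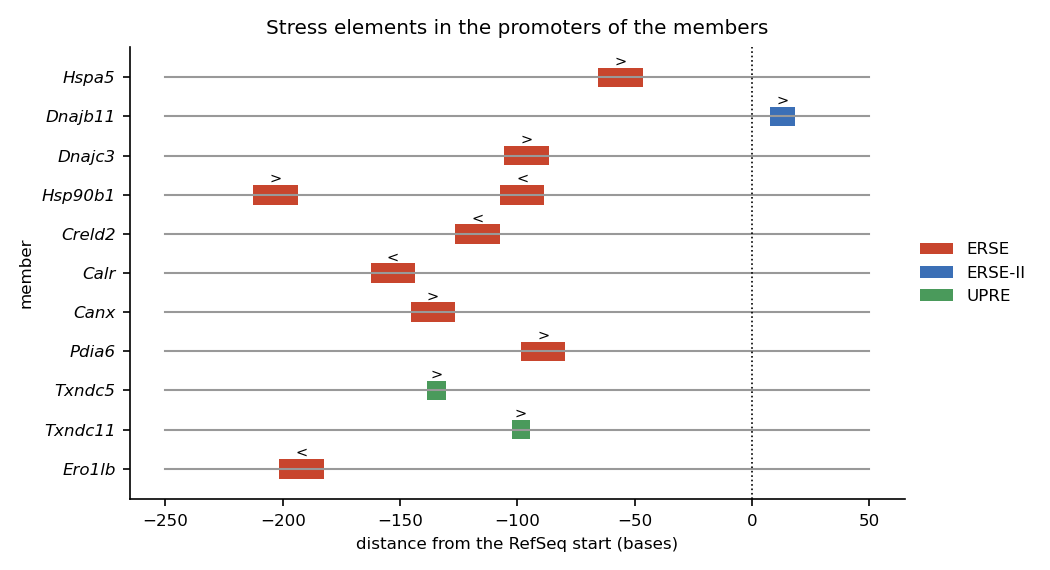
Places of the ERSE, ERSE-II and UPR element (UPRE) in the RefSeq promoters of the 11 members that have one, against the distance from the start in bases; arrowheads give the direction of the motif relative to the gene. The ERSE matches lie between 212 and 47 bases before the start, and that of Hspa5, at 65 to 47, is the nearest to it.

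The members spanned a wide range of levels. In WT islets 6 members had a mean of 100 RPKM or more, 27 lay from 10 to 100, 5 from 1 to 10 and 2 below 1 (Clgn and Fkbp10). Hsp90b1 was the highest (789.2 ± 238.8 RPKM, SD, n = 4), followed by Hspa5 (767.7 ± 280.0), Pdia3 (244.9 ± 51.7), P4hb (209.6 ± 45.8) and Canx (175.1 ± 40.3). The first pair and the last 3 of these overlapped among themselves in WT animals, so their order within each is not firm, but every WT animal had more Hsp90b1 and Hspa5 than any had of the other 3. These 5 genes made up 56.2% to 68.7% of the summed RPKM of the 40 members in each WT animal, 60.7% to 67.8% in Wfs1HZ and 59% to 66.1% in Wfs1KO. The summed level was 3509 ± 669.2 RPKM in WT, 3644.9 ± 990.5 in Wfs1HZ and 4750.2 ± 901.4 in Wfs1KO (mean ± SD, n = 4), and ranged from 2983.7 to 4474.1, from 2392.6 to 4463.8 and from 3972.3 to 5797.8. The ranges of WT and Wfs1KO overlapped. Among the WT animals the highest value of a member was 1.13 to 4.5 times the lowest (median 1.7), with Dnajc1 the most even and Creld1 the least.

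Of the 40 members, 32 were higher in Wfs1KO than in WT and 8 were lower, where 57.8% of all entries tested were higher. No member reached an FDR under 0.05 in limma (0.0138% of all entries did). At an unadjusted p under 0.05 there were 7 higher members (Fkbp11, Pdia6, Sdf2l1, Creld2, Dnajb11, Manf and Erp29; background 3.91% of all entries) and 2 lower (Uggt2 and Ero1lb; background 1.74%). The Wfs1KO and WT animals did not overlap for 3 higher members (Fkbp11, Pdia6 and Sdf2l1; background 1.75%) and 1 lower (Uggt2; background 0.991%). The median log2 fold change of the members was 0.33, against 0.07 over all entries tested. Among the 5246 entries with a mean of at least 10 RPKM, the class that holds 33 of the members, 54.4% were higher in Wfs1KO with a median of 0.03, while 29 of the 33 members were higher with a median of 0.34.

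The differences were largest in Wfs1KO replicates 1 and 2. Their members had a median of 0.56 and 0.58 log2 units above the WT mean, against 0.07 and 0.16 in replicates 3 and 4 and −0.17 to 0.16 in the 4 WT animals. The medians of all entries tested in the same 4 Wfs1KO animals were 0.17, 0.09, −0.24 and 0.29, so the members of replicate 3 lay above the level of their own library and those of replicate 4 below it. In replicates 1 and 2, 28 and 27 members lay above every WT animal, in replicates 3 and 4 it was 7 and 13, and for 25 members replicate 1 or 2 was the highest of all 12 animals. The share of all entries that lay this high in each library was not computed, so these counts are not set against a background. The acinar sums of replicates 1 and 2 (78102.6 and 68798.5 RPKM) lay within the WT range and those of replicates 3 and 4 (278989.4 and 8540.4) outside it on either side. The sums of 6 ductal markers in replicates 1 and 2 (1852.8 and 1907.0 RPKM) were the highest of the 12 animals. Ductal sums were 924.8 and 181.1 RPKM in replicates 3 and 4, 645.1 to 1373.4 in WT and 424.7 to 1370.1 in Wfs1HZ. Of the 6 ductal genes 3 were higher in Wfs1KO than in WT and 3 lower, and the part of ductal cells was not tested. With the acinar sum as a covariate, 34 members were higher in Wfs1KO, the median was 0.33 and 10 members had an unadjusted p under 0.05, as did 8.67% of all entries in that fit (5.64% with all animals and no covariate). Without replicates 3 and 4 there were 33 higher members, a median of 0.56 and 21 with an unadjusted p under 0.05 (8.16% of all entries). Without replicate 1 these values were 29, 0.22 and 4 (4.23% of all entries), and without replicate 2 they were 33, 0.21 and 5 (4.96%). The fits with the acinar sum and without replicates 3 and 4 were chosen after the data had been seen. Replicates 3 and 4 had the lowest medians of the members in Wfs1KO, so leaving them out moves most differences upward. Here and below, such fits do not test the direction.

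Markers of other cells also differed between the genotypes. The 7 stromal markers summed to 20.7 to 58.8 RPKM in WT, 13.9 to 421.0 in Wfs1HZ and 59.9 to 152.1 in Wfs1KO, so that all Wfs1KO animals lay above all WT animals, and the 5 endothelial markers summed to 25.6 to 80.0, 27.3 to 132.1 and 72.8 to 89.5 RPKM. The closest stromal sums of WT and Wfs1KO were 58.8 and 59.9 RPKM, and 1 of the 7 stromal genes did not overlap on its own. The beta cell sums were 32086.4 to 179873.6 RPKM in WT and 22393.7 to 91426.6 in Wfs1KO, and 7 of 9 beta cell markers tested were lower in Wfs1KO (median log2 fold change −0.75). All 5 alpha markers were lower too (median −0.26), as were 2 of 3 delta markers (median −0.23), while the PP marker Ppy was higher (0.94). Of 5 names listed for plasma cells, which secrete antibody and are rich in chaperones, 2 were found. Igj, the joining chain of antibodies, was at 0 to 0.47 RPKM in WT, 0 to 2.15 in Wfs1HZ and 0.43 to 1.23 in Wfs1KO, and had a log2 fold change of 1.78 ± 0.69 (SE) between Wfs1KO and WT (unadjusted p under 0.05, adjusted p = 0.840). Sdc1, which epithelial cells also express, was at 1.77 to 10.7 RPKM in all animals and had −0.06 ± 0.52 (SE). The part of these cell types in the differences of the members was not tested.

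**Figure D2:**
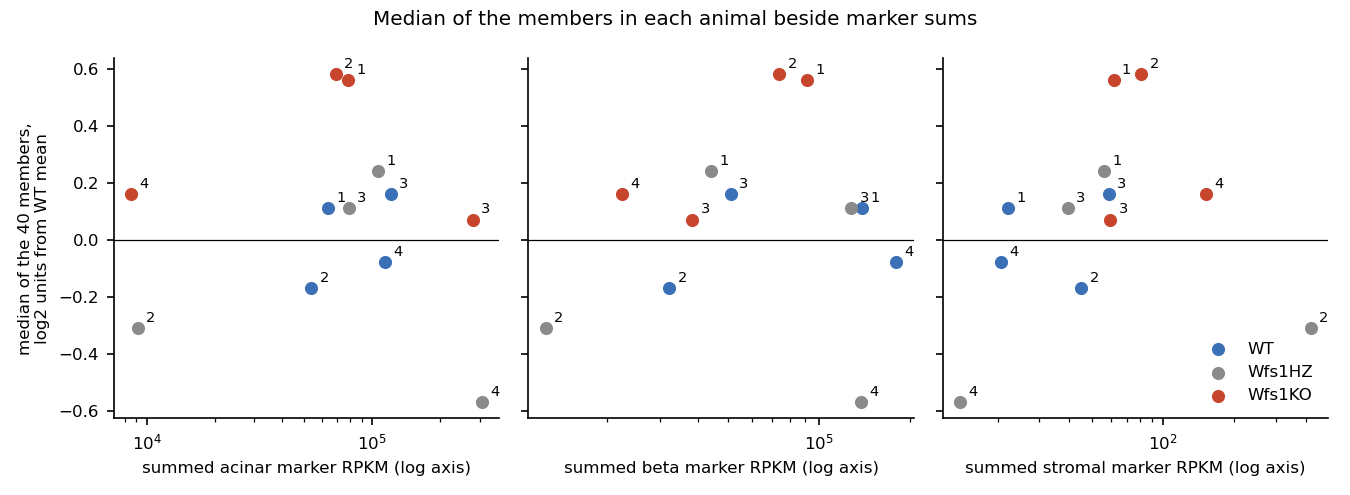
Median of the 40 members in each animal (log2 units from the WT mean, vertical axis) against the summed RPKM of acinar, beta and stromal markers (log axes); each point is 1 animal, coloured by genotype and numbered by replicate. Wfs1KO replicates 1 and 2 sit highest, at 0.56 and 0.58, with acinar sums inside the WT range, and Wfs1HZ replicate 4 sits lowest, at −0.57, with the highest acinar sum. Ductal sums, the highest of all animals in Wfs1KO replicates 1 and 2, are not plotted.

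**Figure D3:**
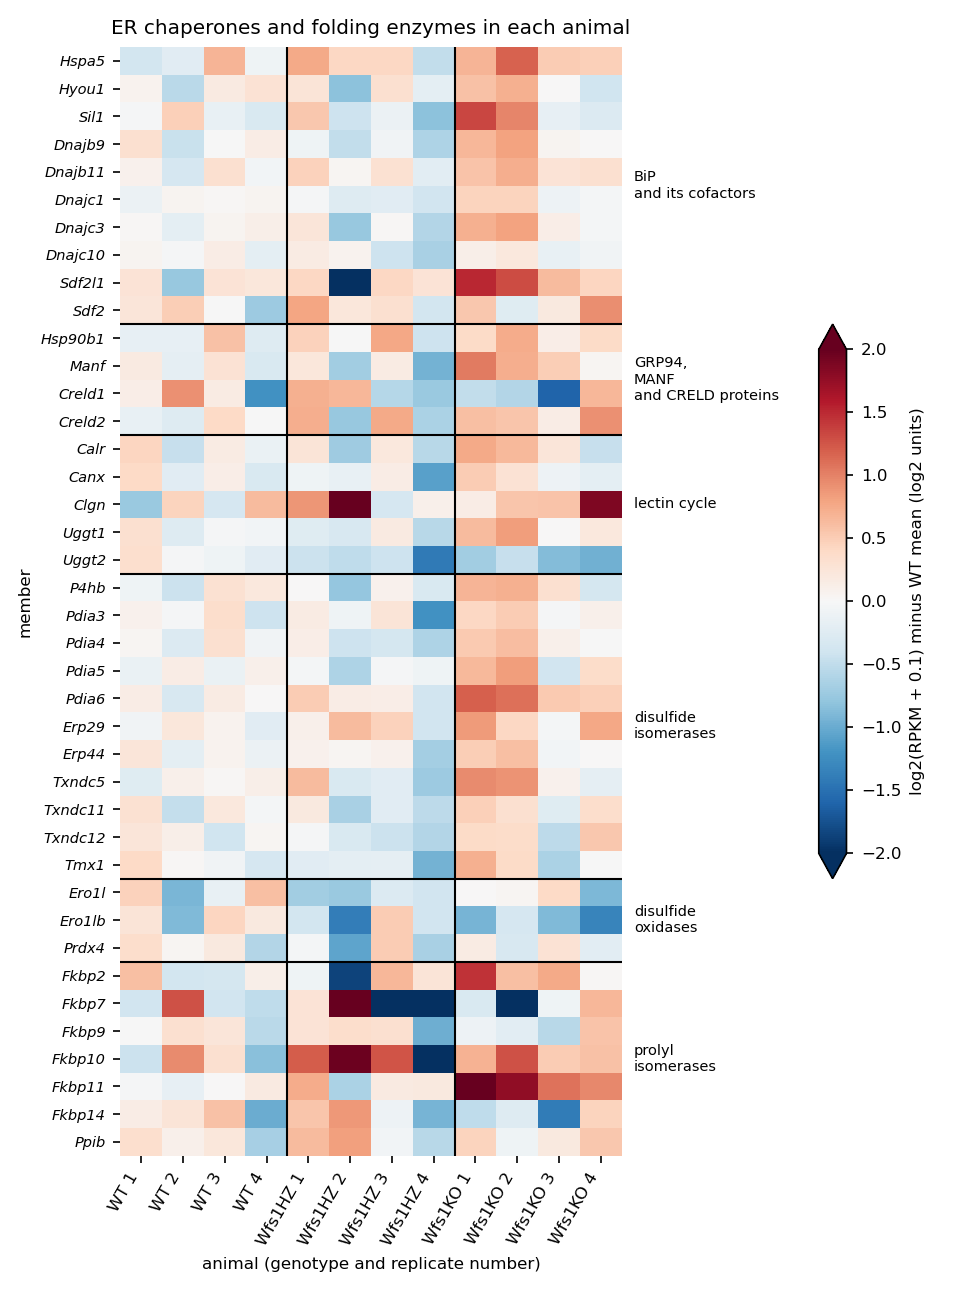
Every member (rows, grouped by role) in every animal (columns), coloured by log2(RPKM + 0.1) minus the WT mean; the colours end at 2 log2 units in either direction. Rows turn red across the BiP and disulfide isomerase groups in Wfs1KO replicates 1 and 2 (medians of the members 0.56 and 0.58, of all entries tested 0.17 and 0.09). They turn blue in Wfs1HZ replicate 4 (median of the members −0.57, of all entries tested −0.61).

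All 10 genes of BiP and its cofactors were higher in Wfs1KO than in WT (57.8% of all entries tested were). Their median log2 fold change was 0.39, from 0.03 in Dnajc10 to 0.97 in Sdf2l1. Of the 10, 2 were higher with an unadjusted p under 0.05 (background 3.91% of all entries), and all 10 stayed higher without Wfs1KO replicates 3 and 4 (median 0.69). Hspa5 (chr2:34771970-34777547), BiP itself and the standard marker of the UPR, was read at 572, 627, 1181 and 690.3 RPKM in WT islets, 1248, 984, 979 and 523 in Wfs1HZ islets, and 1182, 1662, 1051 and 1024 in Wfs1KO islets. Of the WT animals 3 lay below all Wfs1KO animals, but WT replicate 3 was as high as Wfs1KO replicate 1, and the groups overlapped. The means were 767.7 ± 280.0, 933.7 ± 300.8 and 1229.8 ± 296.2 RPKM (SD, n = 4), and the log2 fold change of Wfs1KO over WT was 0.71 ± 0.36 (SE), which did not pass (adjusted p = 0.879, exact permutation p = 0.0857).

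Sdf2l1 (chr16:17130138-17132383) forms part of the BiP chaperone complex and is induced in ER stress. It was read at 42.1, 20.5, 42.1 and 40.6 RPKM in WT islets, 46.5, 7.76, 46.5 and 42.3 in Wfs1HZ islets, and 99.5, 86, 54.4 and 46.8 in Wfs1KO islets. All Wfs1KO animals were above all others, with replicate 4 only just so, while replicate 2 of both WT and Wfs1HZ was far below its group. The log2 fold change over WT was 0.97 ± 0.32 (SE), a 1.96-fold difference (adjusted p = 0.835, exact permutation p = 0.0286), and was 0.71 without WT replicate 2. An exact test of 4 against 4 animals cannot go below p = 0.0286. Over Wfs1HZ it was 1.23 ± 0.55 (SE) (adjusted p = 1.00, exact permutation p = 0.0286), or 0.60 without Wfs1HZ replicate 2 and 0.55 without replicates 2 and 4. Its paralog Sdf2 (28.7 ± 9.38 RPKM in WT and 36.6 ± 12.4 in Wfs1KO) overlapped between the groups, and 16% of its annotated exon length is shared with Supt6 on the other strand.

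Dnajb11 (chr16:22857845-22879634), the DnaJ protein ERdj3 that binds clients ahead of BiP, was read at 38.3, 28.6, 45.2 and 34.8 RPKM in WT islets, 49.95, 37.1, 44.8 and 31.4 in Wfs1HZ islets, and 53.7, 59.7, 43.97 and 45.3 in Wfs1KO islets. In Wfs1KO 3 animals were above all WT animals, replicate 4 by a small margin, and replicate 3 was below the highest. Its log2 fold change was 0.47 ± 0.19 (SE) (adjusted p = 0.844, exact permutation p = 0.0571). Dnajb9 (chr12:44205559-44210326), ERdj4, which holds BiP on IRE1, was read at 114, 66.6, 90.2 and 101 RPKM in WT islets, 85.6, 64.5, 86.8 and 59.6 in Wfs1HZ islets, and 145, 159.5, 94.4 and 91.9 in Wfs1KO islets. All Wfs1KO animals were above all Wfs1HZ animals, but 2 of them fell among the WT animals. It differed by 0.70 ± 0.27 (SE) log2 units over Wfs1HZ (adjusted p = 1.00, exact permutation p = 0.0286) and 0.39 ± 0.25 (SE) over WT (adjusted p = 0.903, exact permutation p = 0.229). Without Wfs1KO replicates 3 and 4 these were 1.06 and 0.74.

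None of the remaining cofactors passed the test against WT either. Hyou1 and Sil1, the nucleotide exchange factors of BiP, had log2 fold changes of 0.23 ± 0.29 (SE) and 0.47 ± 0.38 (SE). Dnajc3, the DnaJ protein p58IPK, had 0.40 ± 0.22 (SE), with 3 Wfs1KO animals above all WT animals. Dnajc1 and Dnajc10, a DnaJ protein with disulfide reductase activity, had 0.19 ± 0.18 (SE) and 0.03 ± 0.15 (SE).

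Of GRP94, Manf and the CRELD proteins, 3 of 4 were higher in Wfs1KO than in WT. Hsp90b1 (chr10:86690209-86705509), the Hsp90 chaperone GRP94, was read at 681, 686, 1146 and 644 RPKM in WT islets, 1056, 759, 1315 and 576 in Wfs1HZ islets, and 995, 1283, 843 and 1000.1 in Wfs1KO islets. Replicate 3 was far above the other WT animals, the genotypes overlapped, and the log2 fold change was 0.41 ± 0.33 (SE) (adjusted p = 0.927, exact permutation p = 0.114). Of the annotated exon length of Hsp90b1, 15.7% is shared with other genes, among them 1810014B01Rik on the other strand. That share is 9.25% in Manf and 11.9% in Txndc5. Manf (chr9:106838312-106891979), a small secreted ER protein that binds BiP and protects beta cells, was read at 41.1, 32.03, 44.1 and 29.3 RPKM in WT islets, 42.3, 22.3, 40.4 and 18.7 in Wfs1HZ islets, and 74.3, 59.6, 51.1 and 37.3 in Wfs1KO islets. It differed by a log2 fold change of 0.58 ± 0.24 (SE) from WT (adjusted p = 0.857, exact permutation p = 0.0857) and of 0.89 ± 0.33 (SE) from Wfs1HZ (adjusted p = 1.00, exact permutation p = 0.0857). In both comparisons 3 of the 4 Wfs1KO animals were above all controls and replicate 4 lay within the control range. Without Wfs1HZ replicates 2 and 4 the difference from Wfs1HZ was 0.38, and without Wfs1KO replicates 3 and 4 the difference from WT was 0.88.

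Creld2 (chr15:88819646-88826683), an ER stress-inducible protein with disulfide isomerase activity, was read at 31.9, 29.4, 46.4 and 35.1 RPKM in WT islets, 58.1, 20.7, 59.3 and 22.6 in Wfs1HZ islets, and 53.2, 51.5, 38.9 and 66.2 in Wfs1KO islets. The Wfs1HZ animals fell into a high and a low pair, and the Wfs1KO animals overlapped with both controls, 3 of them above all WT animals. Its difference was 0.55 ± 0.21 (SE) log2 units over WT (adjusted p = 0.840, exact permutation p = 0.0571) and 0.53 ± 0.38 (SE) over Wfs1HZ, and the latter became −0.19 without Wfs1HZ replicates 2 and 4. Creld1, its paralog, was lower in Wfs1KO than in WT, at 6.21 ± 4.1 against 8.63 ± 4.59 RPKM (−0.51 ± 0.54 (SE) log2 units, adjusted p = 0.937).

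Of the 5 genes of the lectin cycle, 4 were higher in Wfs1KO than in WT, and Uggt2 was the lower one. Uggt2 (chr14:118985039-119099430), the less studied relative of the folding sensor Uggt1, was read at 8.11, 6.28, 6.04 and 5.45 RPKM in WT islets, 4.70, 4.46, 4.76 and 2.35 in Wfs1HZ islets, and 3.92, 4.60, 3.45 and 3.25 in Wfs1KO islets. Every Wfs1KO animal and every Wfs1HZ animal was below every WT animal, and the mutant groups overlapped with each other. Its log2 fold change was −0.75 ± 0.22 (SE) for Wfs1KO over WT (adjusted p = 0.835, exact permutation p = 0.0286), −0.69 ± 0.31 (SE) for Wfs1HZ over WT (adjusted p = 1.00, exact permutation p = 0.0286) and −0.05 ± 0.35 (SE) for Wfs1KO over Wfs1HZ. Without Wfs1HZ replicates 2 and 4 the value of Wfs1HZ over WT was −0.43 and that of Wfs1KO over Wfs1HZ −0.32. The 2 comparisons with WT share the WT animals. Uggt1 (chr1:36140027-36244720), which puts a glucose back on misfolded glycoproteins, was read at 25.96, 17.3, 20.3 and 20 RPKM in WT islets, 17.5, 16.5, 23.5 and 14.1 in Wfs1HZ islets, and 32.2, 36.9, 20.9 and 23.9 in Wfs1KO islets. It lay the other way, with a log2 fold change of 0.42 ± 0.22 (SE) over WT (adjusted p = 0.879, exact permutation p = 0.143) and 0.65 ± 0.26 (SE) over Wfs1HZ (adjusted p = 1.00, exact permutation p = 0.0571). Wfs1KO replicates 1 and 2 were the highest of all animals, the genotypes overlapped, and the difference from WT was 0.73 without replicates 3 and 4.

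Canx (chr11:50293961-50325673), the membrane lectin calnexin, was read at 226, 147, 188 and 139 RPKM in WT islets, 162, 155, 189.7 and 80.6 in Wfs1HZ islets, and 243, 210.2, 159 and 150.1 in Wfs1KO islets. The 3 genotypes overlapped, and Wfs1HZ replicate 4 was the lowest animal by a wide margin. Over WT the log2 fold change was 0.12 ± 0.24 (SE) (adjusted p = 0.972, exact permutation p = 0.600), and it was −0.0040 without Wfs1KO replicate 1 and 0.40 without replicates 3 and 4. Its soluble partner calreticulin (Calr) had 0.30 ± 0.31 (SE) (adjusted p = 0.936). Clgn, the calnexin homolog of the testis, was at 0.443 ± 0.229 RPKM in WT islets, an estimated 3.5 to 21.2 reads an animal, and its log2 fold change was 0.78 ± 0.53 (SE).

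All 11 disulfide isomerases were higher in Wfs1KO than in WT (57.8% of all entries tested were), with a median log2 fold change of 0.31, from 0.11 to 0.82. All 11 were also higher than in Wfs1HZ (53.5% of all entries tested were), with a median of 0.53. The counts were also 11 without Wfs1KO replicates 3 and 4 (medians 0.57 and 0.88), which moves most differences upward. Over Wfs1HZ the count was 11 without Wfs1HZ replicates 2 and 4 as well (median 0.29). Pdia6 (chr12:17266545-17284770), which binds BiP and acts on the IRE1 sensor, was read at 88.4, 63.7, 89.6 and 80.5 RPKM in WT islets, 114, 88.7, 87.2 and 60.9 in Wfs1HZ islets, and 183, 172, 114 and 112 in Wfs1KO islets. All Wfs1KO animals were above all WT animals, replicates 1 and 2 by a wide margin, while the highest Wfs1HZ animal reached into the Wfs1KO range. The means were 80.6 ± 12.0, 87.7 ± 21.7 and 145.1 ± 37.4 RPKM. The log2 fold change of Pdia6 was 0.82 ± 0.22 (SE) over WT, a 1.77-fold difference (adjusted p = 0.835, exact permutation p = 0.0286), and 0.72 ± 0.28 (SE) over Wfs1HZ (adjusted p = 1.00, exact permutation p = 0.0571). Over the 20 alternatives tried, the value over WT was 0.70 at the lowest (Wfs1KO replicate 1 left out) and 1.15 at the highest (replicates 3 and 4 left out), and its adjusted p ranged from 0.224 to 1.00.

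P4hb (chr11:120560298-120573253), the archetypal protein disulfide isomerase and a partner of proinsulin, was read at 193, 153, 253 and 239 RPKM in WT islets, 207, 121, 219 and 167 in Wfs1HZ islets, and 329.9, 336, 257 and 161 in Wfs1KO islets. In Wfs1KO 3 animals were above all WT animals and replicate 4 was below 3 of the 4. Its log2 fold change was 0.34 ± 0.29 (SE) (adjusted p = 0.927, exact permutation p = 0.257), or 0.70 without Wfs1KO replicates 3 and 4. Pdia3 (chr2:121413775-121438687), the isomerase ERp57 that works with calnexin and calreticulin, was read at 256, 238, 306 and 180.5 RPKM in WT islets, 268, 226, 288 and 104 in Wfs1HZ islets, and 321, 343, 236 and 259 in Wfs1KO islets. The genotypes overlapped, with Wfs1HZ replicate 4 far below the rest, and the log2 fold change was 0.25 ± 0.24 (SE) (adjusted p = 0.934, exact permutation p = 0.229), or 0.46 without Wfs1KO replicates 3 and 4.

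Erp29 (chr5:121428590-121452506), a chaperone of the family without the active cysteine pair, was read at 39.4, 48.1, 43.3 and 35.3 RPKM in WT islets, 44.3, 64.4, 57.1 and 31.7 in Wfs1HZ islets, and 74.5, 55.3, 40.2 and 70.4 in Wfs1KO islets. In Wfs1KO 3 animals were above all WT animals, replicate 3 was not, and the log2 fold change was 0.50 ± 0.22 (SE) (adjusted p = 0.879, exact permutation p = 0.0857). Of its annotated exon length 26.4% overlaps Naa25 and Tmem116 on the other strand, and the use of strand in counting is not given in the sources used here, so reads of these genes cannot be told apart there. Txndc12 (chr4:108834601-108862127), a small thioredoxin-like protein, was named for its difference between Wfs1HZ and WT and was read at 48.8, 44.8, 31.1 and 42.5 RPKM in WT islets, 40.6, 33.5, 30.5 and 27.4 in Wfs1HZ islets, and 53.97, 53.1, 28.7 and 59.8 in Wfs1KO islets. Wfs1HZ animals lay in the lower part of the WT range or below it, with a log2 fold change of −0.34 ± 0.21 (SE) (adjusted p = 1.00, exact permutation p = 0.114). The other 6 members of the group (Pdia4, Pdia5, Erp44, Txndc5, Txndc11 and Tmx1) had log2 fold changes over WT from 0.11 (Tmx1) to 0.44 (Txndc5), and each overlapped.

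The 3 disulfide oxidases were lower in Wfs1KO than in WT, but only 1 was with the acinar sum as a covariate and 2 without Wfs1KO replicates 3 and 4. Ero1lb (chr13:12565874-12611396), the oxidase ERO1β that is abundant in beta cells and used in proinsulin folding, was read at 34.5, 15.6, 38.7 and 33.1 RPKM in WT islets, 22.3, 11, 41.2 and 21.96 in Wfs1HZ islets, and 15.1, 22.9, 15.5 and 11.5 in Wfs1KO islets. In Wfs1KO 3 animals were below all WT animals, and WT replicate 2, the animal with the lowest beta cell sum of its group, was at the Wfs1KO level. It was lower by a log2 fold change of −0.87 ± 0.32 (SE) (adjusted p = 0.835, exact permutation p = 0.0571), and −1.16 without WT replicate 2. Ero1l (chr14:45283087-45318771), ERO1α, was read at 47.3, 18.2, 31.1 and 52.3 RPKM in WT islets, 21.1, 20.5, 28.4 and 26.5 in Wfs1HZ islets, and 34.7, 35.2, 45.4 and 18.4 in Wfs1KO islets. It varied widely among WT animals and differed little in Wfs1KO (−0.11 ± 0.38 (SE), adjusted p = 0.991, exact permutation p = 0.771), and the log2 fold change of Wfs1HZ over WT was −0.52 ± 0.32 (SE) (adjusted p = 1.00, exact permutation p = 0.229). Prdx4, the ER peroxiredoxin, had −0.02 ± 0.24 (SE) (adjusted p = 1.000).

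Among the prolyl isomerases, Fkbp11 had the largest difference of all 40 members. Fkbp11 (chr15:98724366-98728198, minus strand), an ER membrane-anchored immunophilin found mostly in secretory tissues, was read at 12.2, 11.1, 12.6 and 14.2 RPKM in WT islets, 20.99, 8.03, 14.2 and 14.3 in Wfs1HZ islets, and 53.9, 43.02, 26.6 and 24.3 in Wfs1KO islets. Every Wfs1KO animal was above every WT and every Wfs1HZ animal, the WT animals were close together, and Wfs1KO replicates 1 and 2 stood above replicates 3 and 4. The means were 12.5 ± 1.3, 14.4 ± 5.29 and 37.0 ± 14 RPKM (SD, n = 4). For Fkbp11 the log2 fold change was 1.48 ± 0.26 (SE) over WT, a 2.79-fold difference (adjusted p = 0.342, exact permutation p = 0.0286), and 1.36 ± 0.35 (SE) over Wfs1HZ, a 2.56-fold difference (adjusted p = 1.00, exact permutation p = 0.0286). The difference from WT exceeded the spread between animals but did not pass the adjustment over all entries. Over 20 alternatives it ranged from 1.27 (Wfs1KO replicate 1 left out) to 1.94 (replicates 3 and 4 left out), with an adjusted p of 0.0888 to 0.925.

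Fkbp2 (chr19:6977741-6980501), a small luminal immunophilin, was read at 90.5, 46.5, 46.9 and 64.6 RPKM in WT islets, 56.4, 16.4, 94.4 and 71.8 in Wfs1HZ islets, and 163, 90.7, 101 and 60.7 in Wfs1KO islets. In Wfs1KO 3 animals were above all WT animals, replicate 2 by a small margin, and the log2 fold change was 0.71 ± 0.33 (SE) (adjusted p = 0.879, exact permutation p = 0.114). It was 0.46 without Wfs1KO replicate 1. Ppib, cyclophilin B, had 0.27 ± 0.25 (SE), with 25% of its exon length shared with Snx22 on the other strand, and Fkbp9 had −0.07 ± 0.28 (SE). Fkbp7, Fkbp10 and Fkbp14, immunophilins known for collagen-producing cells, were at 0.58 to 3.48 RPKM in WT on average, and their log2 fold changes of −0.43, 0.76 and −0.43 had SE of 0.47 to 0.66.

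**Figure D4:**
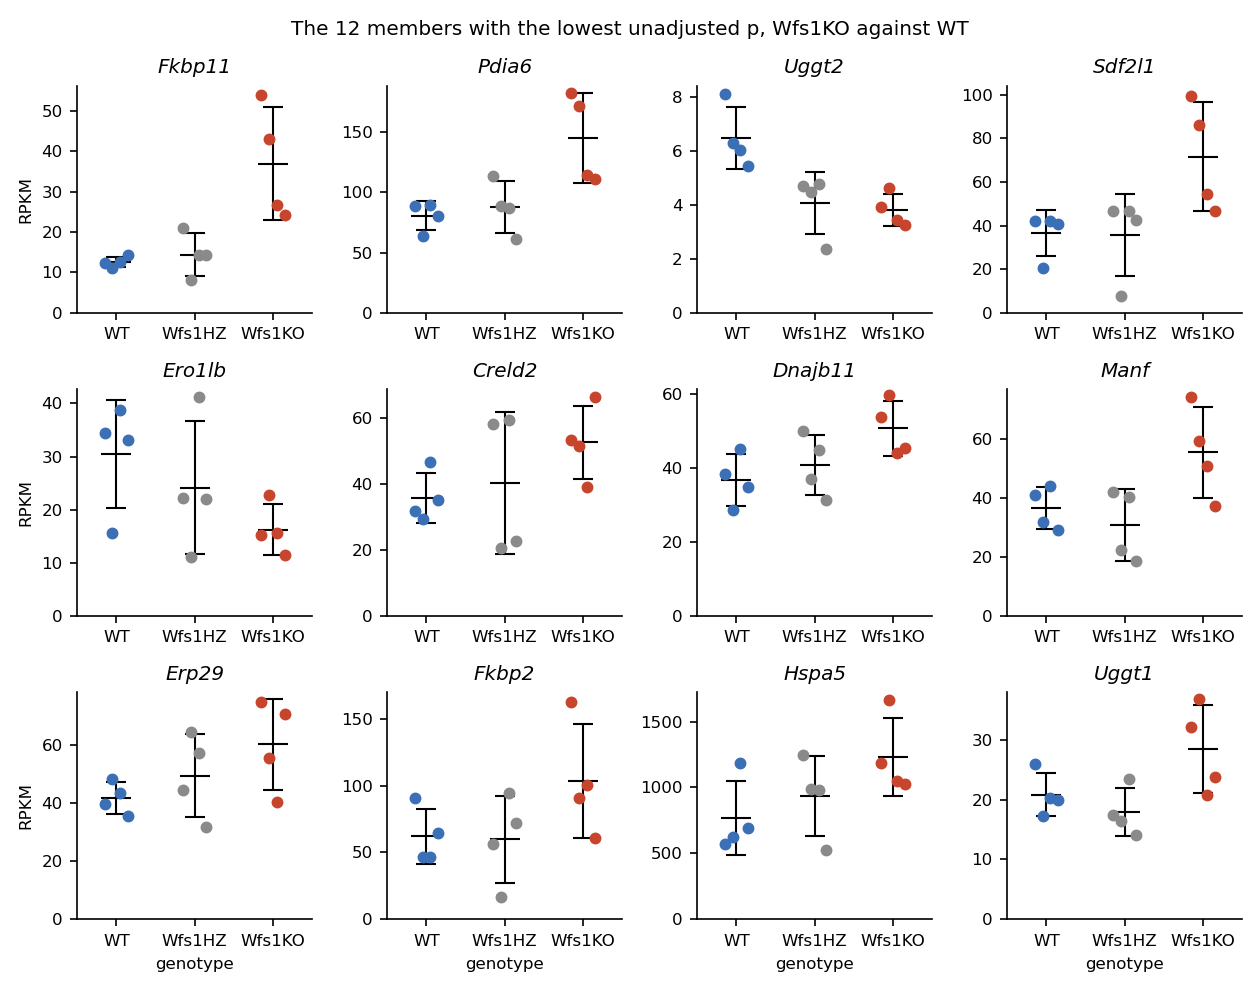
RPKM of the 12 members with the lowest unadjusted p between Wfs1KO and WT, by genotype; points are animals, and bars give the mean ± SD (n = 4). For Fkbp11, Pdia6 and Sdf2l1 all Wfs1KO points lie above all WT points, and for Uggt2 all lie below; the other 8 overlap.

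Against Wfs1HZ, 34 of the 40 members were higher in Wfs1KO and 6 were lower (53.5% of all entries were higher). No member and no entry reached an FDR under 0.05 in limma (0% of all entries). At an unadjusted p under 0.05 there were 7 higher members (Fkbp11, Manf, Dnajb9, Pdia6, Uggt1, Pdia4 and Sdf2l1; background 1.7%) and 0 lower (background 0.756%). The animals did not overlap for 3 higher members (Dnajb9, Sdf2l1 and Fkbp11; background 0.926%) and for 0 lower (background 0.502%). The median log2 fold change was 0.43, against 0.04 over all entries. Among entries with a mean of at least 10 RPKM, however, 70.9% were higher in Wfs1KO with a median of 0.13, beside 31 of 33 members with a median of 0.49. This comparison and the one with WT share the Wfs1KO animals.

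Between Wfs1HZ and WT, 13 members were higher in Wfs1HZ and 27 lower, while 53.5% of all entries were higher. No member and no entry reached an FDR under 0.05 in limma (0% of all entries). At an unadjusted p under 0.05 there were 0 higher members (background 1.09%) and 1 lower, Uggt2 (background 1.27%), which was also the only one whose animals did not overlap (background 0.576% for higher and 1.08% for lower entries). The median was −0.20 against 0.04 over all entries, and −0.22 against −0.11 among those with a mean of at least 10 RPKM, of which 33.1% of all entries and 9 of 33 members were higher. Wfs1HZ replicates 2 and 4, the animals with the lowest and the highest acinar sum of their group, had the lowest members: 20 and 26 lay below every WT animal there, against 1 and 6 in replicates 1 and 3. The share of all entries below every WT animal in each library was not computed, so these counts too have no background. In replicate 4 the median of the members (−0.57) was close to that of all entries tested (−0.61), whereas in replicate 2 the members were at −0.31 and all entries at 0.74. Without both of them 28 members were higher in Wfs1HZ than in WT and the median was 0.21, and 28 rather than 34 members were higher in Wfs1KO than in Wfs1HZ, with a median of 0.22 and 2 with an unadjusted p under 0.05 (3.96% of all entries). These fits were added after the data had been seen. With the acinar sum as a covariate the median of Wfs1HZ over WT was −0.17 and that of Wfs1KO over Wfs1HZ 0.44.

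**Figure D5:**
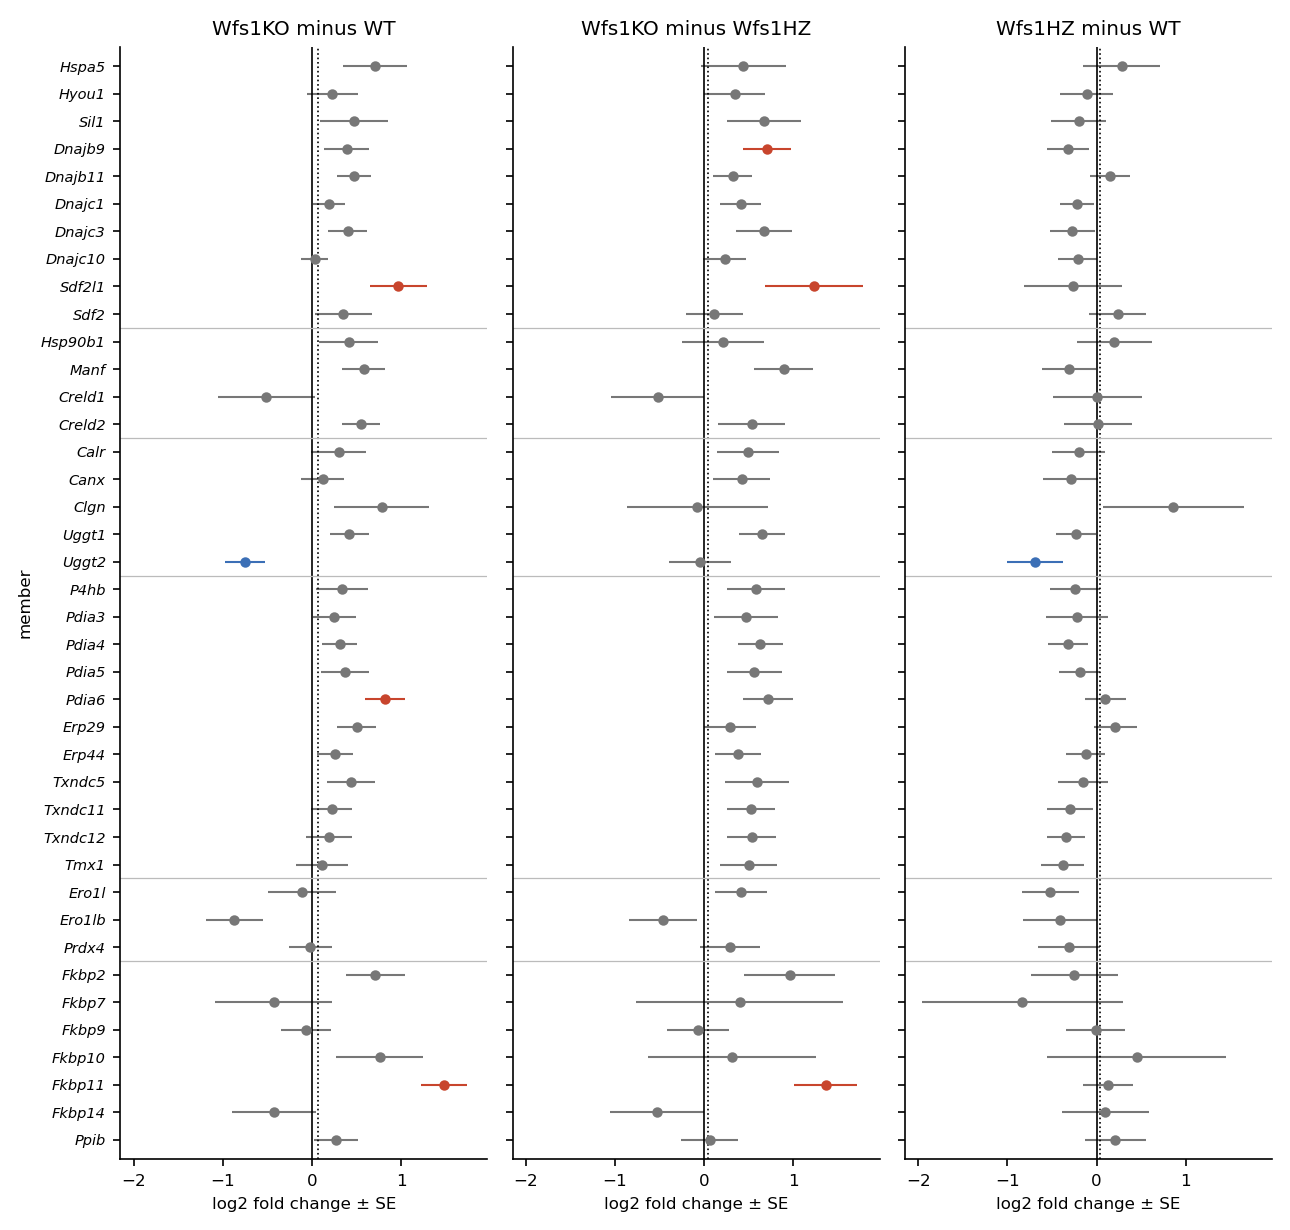
Log2 fold change ± SE (limma) of the 40 members in the 3 comparisons, in order of role; red marks members whose animals of the first genotype all lie above the second, blue all below, grey overlap, and the dotted line is the median of all entries tested (0.07, 0.04 and 0.04). The disulfide isomerases all lie right of 0 in both comparisons with Wfs1KO, and no member passed an FDR of 0.05 in any.

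Members with and without an ERSE in their promoter were set side by side. In Wfs1KO over WT, 7 of the 8 were higher, with a median log2 fold change of 0.41 and Ero1lb (−0.87) as the exception. Of the 26 members with a promoter in the table and no ERSE, 19 were higher, with a median of 0.26 and a range from −0.75 (Uggt2) to 1.48 (Fkbp11). The other 6 members (Hyou1, Sil1, Manf, Clgn, Erp29 and Fkbp10) were all higher, with a median of 0.54. Over Wfs1HZ the medians of these 3 sets were 0.46, 0.44 and 0.33, and 0.08, 0.27 and 0.24 without Wfs1HZ replicates 2 and 4. These are descriptions, and the sets were not tested against each other.

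Neighbouring steps of the pathway were read from lists chosen by function. Of 14 genes of ER-associated degradation, which returns misfolded proteins to the cytosol, 13 were higher in Wfs1KO than in WT (57.8% of all entries were), with a median log2 fold change of 0.34. Among them 4 had an unadjusted p under 0.05 (background 3.91% of all entries) and 2 did not overlap (background 1.75%). Derl3, a derlin of the retrotranslocation channel, was at 24.9 ± 4.84 RPKM in Wfs1KO and 7.68 ± 2.52 in WT (log2 fold change 1.72 ± 0.28 (SE), adjusted p = 0.270), with no overlap. Edem2, a mannosidase that marks glycoproteins for degradation, was at 21.3 ± 7.77 against 12.0 ± 1.62 RPKM (0.76 ± 0.26, adjusted p = 0.835). None of the 14 passed the adjustment, and without Wfs1KO replicates 3 and 4 all 14 were higher (median 0.50).

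All 15 genes of the translocon and of signal peptide removal were higher in Wfs1KO than in WT (57.8% of all entries were), with a median of 0.37. Of these, 2 had an unadjusted p under 0.05 (background 3.91% of all entries). Spcs2, a subunit of the signal peptidase, was at 60.9 ± 16.8 against 37.2 ± 9.81 RPKM (0.71 ± 0.26, adjusted p = 0.835). Ssr3, a subunit of the translocon-associated protein complex, was at 154.5 ± 48.1 against 97.3 ± 8.45 RPKM (0.62 ± 0.24, adjusted p = 0.840), the one of the 15 without overlap (background 1.75%). Over Wfs1HZ all 15 were higher too (median 0.63), and in Wfs1HZ all 15 were lower than in WT (median −0.21), in fits that share animals. Without Wfs1HZ replicates 2 and 4, 14 were higher in Wfs1KO than in Wfs1HZ (median 0.40) and 6 were higher in Wfs1HZ than in WT (median −0.01). Without Wfs1KO replicates 3 and 4 the median over WT was 0.66.

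The sensors and factors of the UPR had a smaller median. Of 10 genes, 7 were higher in Wfs1KO than in WT (57.8% of all entries were), with a median log2 fold change of 0.10. None had an unadjusted p under 0.05 (5.64% of all entries did, in either direction). Without Wfs1KO replicates 3 and 4, 9 were higher with a median of 0.30. Ppp1r15a, the phosphatase subunit GADD34, was at 38.4 ± 8.74 against 29.7 ± 0.498 RPKM (0.34 ± 0.18, adjusted p = 0.879), and all Wfs1KO animals were above all WT animals (background 1.75%). In Wfs1HZ it was as high, at 40.4 ± 7.53 RPKM, with a log2 fold change of −0.08 ± 0.24 for Wfs1KO over Wfs1HZ. Atf6b, the paralog of ATF6, was at 8.09 ± 2.90 against 5.51 ± 1.51 RPKM (0.51 ± 0.30, adjusted p = 0.879). The table gives 1 value for Xbp1, so its spliced form could not be read apart.

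Chaperones of the cytosol and mitochondria were read as another compartment. Of 13 genes, 5 were higher in Wfs1KO than in WT (median −0.06) and 3 higher than in Wfs1HZ (median −0.13), where 57.8% and 53.5% of all entries were higher. None of the 13 had an unadjusted p under 0.05, while 5.64% and 2.45% of all entries did. The direction of the 13 did not hold without Wfs1KO replicates 3 and 4, where 11 were higher than in WT (median 0.30) and 9 higher than in Wfs1HZ (median 0.15). Hspa8, the constitutive cytosolic Hsp70, was at 115.1 ± 31.6 against 170.7 ± 65.0 RPKM (−0.53 ± 0.31, adjusted p = 0.879), and Dnaja1, one of its DnaJ partners, at 10.2 ± 3.14 against 14.1 ± 4.97 RPKM (−0.44 ± 0.32, adjusted p = 0.927). The difference between the ER and cytosolic lists was not tested. Insulin transcripts, the main cargo of the beta cell ER, were lower on average and variable: Ins1 was at 46381.7 ± 35671.3 RPKM in WT, 36568.7 ± 29988.6 in Wfs1HZ and 29907.4 ± 18711.6 in Wfs1KO, and Ins2 at 45517.5 ± 30857.6, 38819.4 ± 29736.8 and 20344.3 ± 10834.5, with ranges that overlapped in all genotypes.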

How the data were processed

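The authors made cDNA from total islet RNA, sequenced fragment libraries on a SOLiD instrument and mapped the reads to mm10. They deposited RPKM values, 1 column for each animal and without log transformation; the annotation and counting tool are not given in the sources used here. RPKM are not counts, so the edgeR test of the authors was replaced by limma (version 3.58.1, R 4.3.3) on log2(RPKM + 0.1), fitted for each pair of genotypes with a trend in the variance and adjusted by Benjamini-Hochberg over 21701 entries. This scale understates the change of low genes. For single members an exact permutation test (two-sided, difference of mean log2 values) was added. The fit was tested on simulated data. The members and lists were chosen with earlier results of these data known. Full values are given for members whose Wfs1KO and WT animals do not overlap, the 12 with the lowest p in Wfs1KO against WT, the 3 lowest in each other comparison and the 5 highest in WT; other lists name the 2 lowest p. Animals are separate mice, so p-values measure the spread between mice. Coordinates are GENCODE M21, of the same build as mm10, and promoters are RefSeq (GRCm38.p6). Alternatives tried were other pseudocounts and filters, median-of-ratios and quantile scaling, a variance without trend, all 12 samples in a fit, sample weights, a replicate block, and animals left out. Depth was estimated from short RNA genes, of whose low values 95.7% to 100% were whole reads within 0.05; intervals of counting are not given, and the 3-read limits cover counting error only.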

Additional observations from a re-analysis of the deposited data

Results flagged for a closer look

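A single animal stood apart from the other 3 of its genotype (Dixon's test at the 95% level) in 10 of the 123 groups of 4 tested, where chance flags about 1 in 20. In Wfs1HZ replicate 4, 4 members were far below the others: Uggt2 at 2.35 RPKM (others 4.46 to 4.76), Erp44 at 21.86 (36.13 to 37.46), Tmx1 at 22.61 (37.26 to 38.27) and Fkbp9 at 23.07 (55.05 to 57.58). This library was low as a whole, with a median of all entries tested at −0.61 log2 units from the WT mean and a median-of-ratios size factor of 0.641, the lowest of the 12, and it had the highest acinar sum, 307256.1 RPKM; the part of these in the values was not tested. In Wfs1HZ replicate 2, Sdf2l1 was at 7.76 RPKM (others 42.31 to 46.55) and Pdia5 at 5.54 (8.04 to 8.42). Among WT animals, replicate 2 stood apart for Sdf2l1 at 20.54 RPKM (40.63 to 42.13) and for Fkbp7 at 2.6 (0.69 to 0.76), and replicate 3 for Hsp90b1 at 1146.25 (643.82 to 685.64). In Wfs1KO, replicate 4 stood apart for Clgn at 1.73 RPKM (0.46 to 0.65).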

How the results depend on the processing

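The count of members with an FDR under 0.05 was 0 under every alternative in all 3 comparisons. Of the 244 values of the counts and medians of the members over all alternatives, 216 stayed within 1.5 times the count, or within the spread between animals of the median. These include the FDR counts, which were all 0. That spread, 0.278 log2 units, is close in size to the medians themselves (0.33 for Wfs1KO over WT). The number with an unadjusted p under 0.05 moved most; shares of all entries in the same fits are in parentheses. For Wfs1KO over WT it was 4 with all 12 samples in a single fit (3.03% of all entries, 5.64% in the pairwise fit) and 18 with sample weights (9.52%). With 1 animal left out it was 4 to 11 (4.23% to 8.62%): 4 without Wfs1KO replicate 1 or WT replicate 4, and 5 without Wfs1KO replicate 2. Leaving out Wfs1KO replicates 3 and 4 gave 21 (8.16%). For Wfs1KO over Wfs1HZ it was 4 with median-of-ratios scaling (3.66% of all entries, 2.45% unscaled), 1 with a variance without trend (2.47%) and 17 with sample weights (10.3%). With 1 animal left out it was 1 to 10 (1.57% to 6.03%): 1 without Wfs1KO replicate 1 or 2, 3 without Wfs1HZ replicate 2, and 2 without Wfs1HZ replicate 4. It was 2 without Wfs1HZ replicates 2 and 4 (3.96%) and 15 without Wfs1KO replicates 3 and 4 (3.65%). For Wfs1HZ over WT, with 1 in the main fit (2.35%), it was 0 with a pseudocount of 1 (1.83%), a minimum mean of 1 RPKM (2.16%) or a variance without trend (2.36%). It was 2 with quantile normalization (4.62%) or sample weights (7.09%), and 0 to 1 with 1 animal left out (1.41% to 5.01%). In that comparison 24 members were higher with sample weights, 8 to 19 with 1 animal left out and 28 without Wfs1HZ replicates 2 and 4, and the median turned from −0.20 to 0.05 with sample weights and to 0.21 without those replicates (−0.32 to −0.04 with 1 animal left out). In Wfs1KO over Wfs1HZ, Hsp90b1 and Creld2 turned to −0.09 and −0.01 with sample weights and to −0.21 and −0.19 without Wfs1HZ replicates 2 and 4. Uggt2 there ranged from −0.29 to 0.04 with 1 animal left out and was 0.11 without Wfs1KO replicates 3 and 4, and Canx over WT ranged from −0.0040 to 0.26. All other directions of named members, 747 of 757 values, were kept. Part of these were fixed by design: other filters, a variance without trend, the single fit and the replicate block leave a log2 fold change as it was. The cause of these changes was not tested. The replicate numbers did not pair the animals (correlation of deviations −0.174 to 0.228). With the replicate block 6, 5 and 1 members had an unadjusted p under 0.05 in the 3 comparisons (5.03%, 1.82% and 3.94% of all entries), and 0 passed the FDR. Depth limits members near 1 RPKM, such as Clgn, Fkbp7 and Fkbp10.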
